A study of Mus musculus with 21 samples.

Results

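The contacts of the Satb1 promoter were compared between adult mouse thymus and fetal mouse brain, by 4C-seq with the enzymes NlaIII and DpnII. The comparison rests on 2 of the 21 libraries of the series, chosen because they share viewpoint and enzymes and differ in tissue. Both tissues came from C57BL/6 mice without any modified allele or drug. The thymus library was made from 1 adult thymus. The brain library was made from brains of embryos at 14.5 days post coitum, with 10 to 12 brains pooled and material equal to 4 of them used, so age and tissue differ together and cannot be told apart. About equal numbers of cells of either tissue were fixed with 2% formaldehyde for 10 minutes. Each tissue had 1 library, so there is no replicate spread, no test was run, and every difference below compares 2 libraries. Cell types within each organ were not separated, and a contact profile holds no expression values against which the tissue label could be checked.

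Satb1 is a nuclear protein that binds AT-rich DNA and organises chromatin loops, and it is known for its high expression in developing thymocytes. In 4C-seq, DNA fragments lying near a chosen fragment, the viewpoint, are ligated to it, and their frequency is read by sequencing. Genes whose enhancers lie far away are often contacted by them through looped chromatin, and such contacts can differ between tissues. In the RefSeq gene table Satb1 is read from the minus strand, so the gene body lies on the lower-coordinate side of its promoter. Its nearest protein-coding neighbours are Tbc1d5 on that side and Kcnh8, a potassium channel gene, on the other. Between Satb1 and Kcnh8 the table lists 5 genes and none that codes for a protein: the long non-coding RNA genes Gm20098, Gm19585, Gm41600 and Gm27217, and the pseudogene Gm19197. Between Tbc1d5 and Satb1 it lists 6 genes, again with 0 that code for proteins. The table is on GRCm38.p6 and the profiles are on mm9, so it is used here for the order of genes alone.

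The sequence just upstream of Satb1 is shown because the choice of enzymes sets which fragments a promoter viewpoint can use. Of the 5 Satb1 starts in the RefSeq promoter table, the outermost is given, on the minus strand at chr17:51833291-51833540 in GRCm38.p6. Capitals mark the NlaIII site CATG and the DpnII site GATC, which read the same on both strands.
Satb1, bases before the outermost start: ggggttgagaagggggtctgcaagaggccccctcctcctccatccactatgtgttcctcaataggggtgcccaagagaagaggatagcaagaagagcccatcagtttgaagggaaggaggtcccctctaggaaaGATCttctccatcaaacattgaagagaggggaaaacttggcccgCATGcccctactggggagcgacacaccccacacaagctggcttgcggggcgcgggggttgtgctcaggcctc
This window of 250 bases holds 1 site of each enzyme, with CATG starting 72 bases before the start and GATC farther out. Of 32851 promoter windows of that length, 53.9% hold CATG, 41.9% hold GATC and 23.5% hold both. The primer sequences were not used here, so the window shows the neighbourhood of the promoter and not the viewpoint fragment.

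Each profile ran over chromosome 17 from 51700000 to 53000000 (mm9) in steps of 1000 bp. The signal is a running median over fragment ends, here in a window of 5 kb, and it was highest at 51974000 in both libraries, which was taken as the viewpoint. Positions within 10 kb of it were left out, which left 1275 shared positions, 262 on the lower-coordinate and 1013 on the higher-coordinate side. Beyond 10 kb the mean signal was 0.00810 in thymus and 0.0201 in brain, where 1 is about the level at the viewpoint. The relative signal is the signal divided by that mean. Fill differed: 2 recurring low values made up 791 positions in thymus and 327 (25.6%) in brain. Together with everything below the higher of them, which is called the floor here, they made up 867 in thymus and 383 in brain. Values at the floor have no order. The empty positions were nearly the same, 35 in thymus and 37 in brain, with 35 in both. Sequencing depth is unknown, so no counting interval can be given.

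From the promoter viewpoint the signal was even between the sides in the brain library and lay chiefly on the higher-coordinate side in the thymus library. Within 272 kb, the distance covered on both sides, 86.9% of the thymus signal lay on the higher-coordinate side, against 49.8% of the brain signal. Positions were also paired at mirrored distances. Of 262 pairs in thymus, 46 had both values at or below the floor and so no order, and in 207 of the other 216 (95.8%) the higher-coordinate side held more signal. In brain it did in 51.9% of 262 pairs, none of them at the floor on both sides. These shares are taken within a library, so no scaling between the libraries enters them. For scale, the one technical pair of the series, the Hba-a1 promoter in fetal liver with full and with 1/16 template, differed by 13.4 percentage points in the same share. That pair is from another locus and is no replicate of these libraries.

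The whole lower-coordinate side is called the gene-body side here, although the end of the gene was not placed on it. On this side the thymus profile was mostly at the floor beyond 50 kb. The mean relative signal from 10 to 50 kb was 1.97 in thymus and 5.58 in brain. From 50 to 100 kb it was 0.243 in thymus and 2.14 in brain, which is 8.78-fold higher in brain, the widest gap of the 12 bands of distance. In that band 92% of thymus positions and 0 of 50 brain positions were at the floor. From 100 to 200 kb the means were 0.196 and 0.928, and from 200 to 272 kb 0.157 and 0.848, with 97% and 100% of thymus positions at the floor. The thymus values there thus have no measured order. They are running medians, so they set no upper limit on the mean level within a window.

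On the opposite side, towards Kcnh8, thymus was the higher library close to the promoter. From 10 to 50 kb the mean relative signal was 10.9 in thymus and 5.49 in brain, and from 50 to 100 kb 3.93 and 1.99. From 100 to 200 kb the libraries were level, at 1.08 and 1.05. From 200 to 300 kb the means were 0.837 and 0.697, and from 300 to 400 kb 1.27 and 0.593, a fold of 2.14. From 400 to 500 kb they were 0.694 and 0.588, and from 500 to 700 kb brain was higher, with 0.620 against 0.400. The thymus mean thus had a second high stretch 300 to 400 kb away, whereas the brain mean stayed between 0.588 and 0.697 from 200 to 700 kb. Beyond 700 kb both were low, at 0.158 and 0.171, with 100% of thymus and 98.5% of brain positions at the floor.

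**Figure D1:**
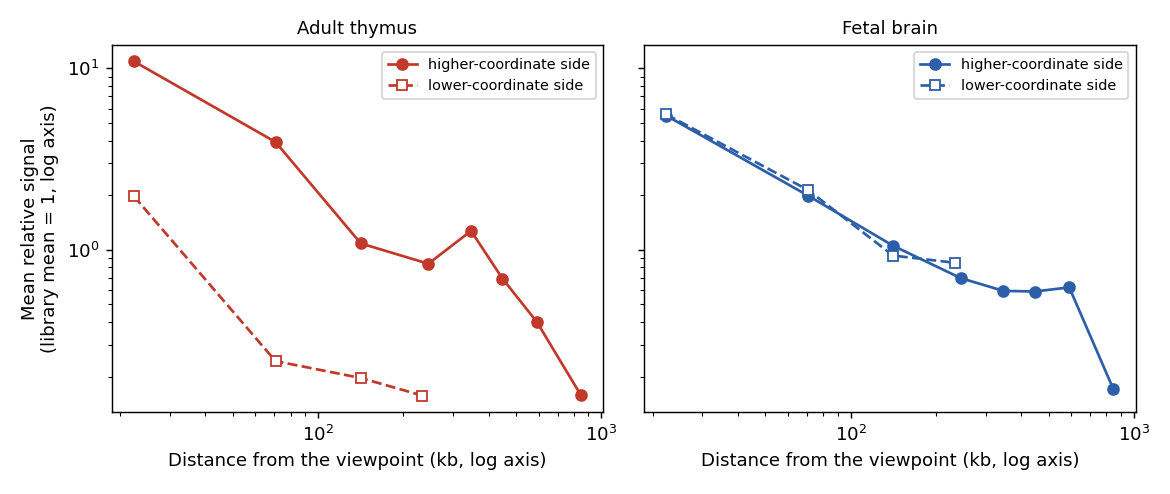
Mean relative signal (library mean = 1, log axis) in bands of distance from the viewpoint (kb, log axis, drawn at the geometric middle of each band) on the higher-coordinate side (filled) and the lower-coordinate side (open). The brain curves overlie each other up to 272 kb, while in thymus the lower-coordinate side falls from 1.97 to 0.157.

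Inside the thymus library the higher-coordinate side exceeded the lower by 5.54-fold at 10 to 50 kb, 16.1-fold at 50 to 100 kb, 5.52-fold at 100 to 200 kb and 6.22-fold at 200 to 272 kb. The matching ratios in brain were 0.984, 0.931, 1.13 and 0.928. The neighbouring thymus viewpoints, cut with other enzyme pairs and labelled +1.5 kb and -6 kb from the promoter, held 61.8% and 78.5% of their signal on the higher-coordinate side. The ES cell library of the same promoter viewpoint held 47.4%. The +1.5 kb thymus share was nearer to that of brain (49.8%) than to that of the thymus promoter library (86.9%). The -6 kb share was nearer to that of the thymus promoter library. Beyond 50 kb on the gene-body side the mean relative signal was 0.194 from the promoter, 0.269 from +1.5 kb and 0.398 from -6 kb in thymus, against 1.17 in brain and 1.21 in ES cells. In the -6 kb library 5.78% of those positions were at its floor, against 96.8% from the promoter in thymus, 87.6% from +1.5 kb, 1.80% in brain and 10.8% in ES cells. The -6 kb library has another viewpoint, another enzyme pair and a lower floor, 0.0681 of its mean against 0.230, and the part of the floor in the low gene-body side was not tested.

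Of 222 positions beyond 50 kb on the gene-body side, 7 stood above the floor in thymus. The highest was 51856000, with a relative signal of 2.05 and a window range of 0.152 to 5.74. Brain had 1.92 there, so at this position the libraries were alike, and the 3 positions that follow were empty in both. The position stood at 0.180, the floor, from +1.5 kb in thymus, at 0 from -6 kb and at 0.520 in ES cells.

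Position by position, thymus was more than 2-fold above brain in relative signal at 10% of the 1275 positions, and brain above thymus at 452, 35.5% of all. All thymus-high positions lay on the higher-coordinate side. Of the 452, 245 lay on the gene-body side, which is 93.5% of that side, and 207 on the other, which is 20.4%. The median log2 ratio over all positions was -0.17 with an SD of 1.19. The split depends on the scaling: with each library divided by its median, 711 positions were higher in thymus and 59 in brain, and with the deposited values unscaled 14 and 1029. These scalings moved the median log2 ratio by 1.46 and -1.31. Among the 400 positions above the floor in both libraries, a choice made after seeing the data, the balance turned, with 31% past 2-fold higher in thymus and 13.2% (53) in brain. With a decay fitted to each side, 85 and 200 were past 2-fold. The median of the thymus library is its own floor, at 0.230 of the mean. In the technical template pair 2.45% and 65.6% of positions were past 2-fold, so shares of this size also arose between libraries of 1 tissue.

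Another reading used the lower and higher values of the window, whose quantile levels are not stated, so what a gap between them means is not known exactly. The lower thymus value stood above the higher brain value at 3 positions (0.235%), 52018000 to 52020000. The reverse held at 27 positions (2.12%), 26 of them on the gene-body side between 51702000 and 51897000 and 1 at 52656000. Elsewhere the ranges of the libraries overlapped, the -470 kb site included.

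**Figure D2:**
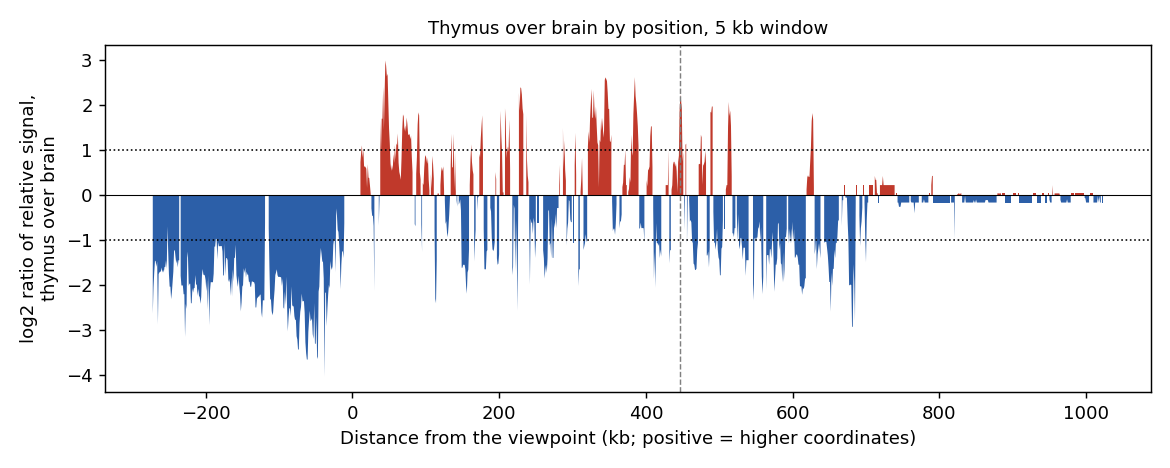
log2 ratio of relative signal, thymus over brain, against distance from the viewpoint in kb at the 5 kb window; dotted lines mark 2-fold and the dashed line the -470 kb viewpoint. The gene-body side (negative distances) lies below 0 at nearly all positions, the 51856000 peak being an exception, and thymus excess comes in separate peaks on the other side.

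Thymus excess formed short, separate stretches. Positions past 2-fold fell into 36 runs in thymus and 63 in brain. Of these, 7 thymus runs and 21 brain runs held 5 or more positions in a row, and the brain runs were longer. The longest thymus runs were 52311000 to 52327000 and 52295000 to 52309000, with 17 and 15 positions. Mean relative signals in them were 2.36 and 2.30 in thymus and 0.620 and 0.654 in brain. Next were 52042000 to 52054000 and 52014000 to 52025000, with 13 and 12 positions. The longest brain run, 51861000 to 51948000, covered 88 positions, with means of 2.80 in brain and 0.529 in thymus. It is followed by 51790000 to 51854000 with 65 positions and 51740000 to 51787000 with 48, so that the gene-body side is close to 1 continuous brain-high stretch. In these brain runs, in order, 70.5%, 100% and 100% of thymus positions were at the floor. Most other long brain runs also had 100%, while 51956000 to 51962000 had 0%. The part of the floor in the lengths of the runs was not tested.

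The strongest single difference towards thymus was at 52019000, 45 kb from the promoter. Within 5 kb of it the relative signal averaged 16.8 in thymus (lower to higher window value 4.49 to 48.2) and 3.51 in brain (1.67 to 7.49). Expected signal was taken from a monotone decay with distance fitted to each library over both sides. Observed over expected (O/E) at this site was 3.06 in thymus and 0.965 in brain. With a decay fitted to each side alone it was 1.79 and 1.12, a log2 difference of 0.67 in place of 1.66, which is no longer past 2-fold. The thymus value was the highest of positions on the same side at 0.5 to 2 times the distance, and the brain value stood at percentile 67.6. The site was picked from this thymus library and by its ratio to brain, so these ranks follow partly from the choice. The other thymus viewpoints had relative signals of 7.53 (+1.5 kb) and 3.62 (-6 kb) there, and ES cells 6.32. Brain thus had the lowest relative signal of the 5 libraries at this site, just under the -6 kb thymus library. After division by the decay over both sides, O/E was 2.20 from +1.5 kb, 1.49 from -6 kb and 1.08 in ES cells. By that measure both ES cells and the -6 kb thymus library were nearer to brain than to the thymus promoter library.

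Around 345 kb the relative signal was above the mean in all 3 thymus libraries and below it in brain and ES cells. In the 50 kb bins from 52.25 and 52.35 Mb, to either side, the -6 kb library was also above its mean (1.53 and 1.06). Brain (0.566 and 0.564) and ES cells (0.246 and 0.140) were also below theirs, so for these libraries the side of the mean is not particular to the site. The promoter (0.673 and 0.894) and +1.5 kb (0.575 and 0.742) thymus libraries were below their means in those bins. At 52319000 the relative signal averaged 2.55 in thymus (0.216 to 11.1) and 0.550 in brain (0.163 to 1.67), a log2 ratio of 2.03. O/E was 3.16 in thymus and 0.905 in brain, at percentiles 99.2 and 39 of distance-matched positions. This site too was picked in the thymus library and by its ratio, so its ranks follow partly from the choice. From +1.5 kb the signal at the site was 3.23 times that library's mean, from -6 kb 2.22 times, and in ES cells 0.695 times. After division by each library's decay, O/E was 3.15 from +1.5 kb, 1.90 from -6 kb and 1.99 in ES cells, so the site was above expectation in ES cells too. Looking from the -470 kb viewpoint in thymus, the same site stood at 3.63 times the mean and at O/E 1.69. The neighbouring position 52299000 had 2.16 in thymus and 0.616 in brain.

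Sites at 232 and 385 kb were also higher in thymus. At 52206000 relative signals averaged 2.47 in thymus and 0.775 in brain, with O/E of 3.06 and 0.911. At 52359000 they were 2.36 and 0.624, with O/E of 2.93 and 1.01. The +1.5 kb and -6 kb thymus libraries had 3.40 and 1.81 at the first site, and 1.37 and 1.56 at the second. ES cells had 0.301 and 0.110. From the nearby -470 kb viewpoint in thymus, 52359000 stood at 4.32 times the mean and at O/E 1.50.

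The site labelled -470 kb has its signal maximum at 52420000, which is 446 kb from the promoter viewpoint. Within 5 kb of it (52415000 to 52425000) the relative signal averaged 1.47 in thymus (0.153 to 7.71) and 0.529 in brain (0.150 to 1.43). The log2 ratio was 1.32, and the lower thymus value lay below the brain middle value. The +1.5 kb viewpoint in thymus, 450 kb away, had 5.79 times its mean there and O/E 5.58, its highest value among the 8 named maxima and this site after division by the decay. The -6 kb viewpoint had 1.31 times its mean, and ES cells 0.103 times, which is the ES floor. The nearby position 52487000, 513 kb away, had 1.31 in thymus and 0.503 in brain, and 52464000 had 0.669 and 0.499.

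**Figure D3:**
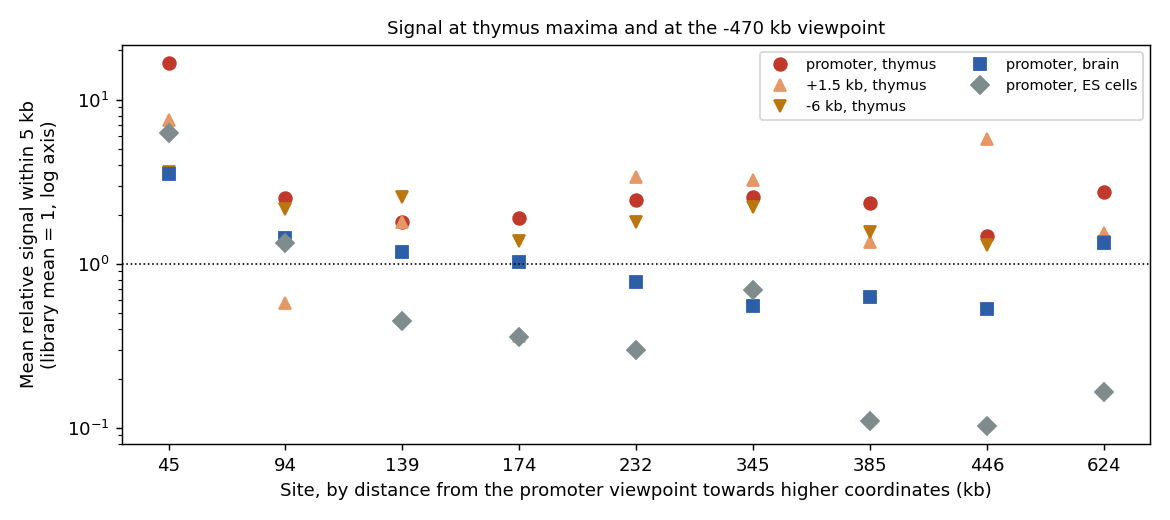
Mean relative signal within 5 kb (library mean = 1, log axis) at the 8 thymus maxima and the -470 kb viewpoint, ordered by distance from the promoter viewpoint, in 3 thymus libraries, brain and ES cells. Brain lies under the promoter library of thymus at all 9 sites, which were chosen from that thymus library or as a landmark.

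Some maxima of the 2 libraries lay near each other. Up to 8 maxima of O/E were taken per library. All 8 thymus maxima lay on the higher-coordinate side, while 4 brain maxima lay on each side. Maxima had to be among the higher signals of their library and were ranked by O/E from a decay over both sides. Most thymus positions of the gene-body side were at the floor and could hardly qualify. The sides of the thymus maxima thus largely restate the side share of the signal and are no separate result. Of the thymus maxima, 4 had a brain maximum within 10 kb: 52598000 with 52600000, 52206000 with 52213000, 52148000 with 52151000, and 52113000 with 52117000. Brain O/E at its own maxima of these pairs was 2.05, 1.56, 1.17 and 1.19, but at 52206000 it was 0.911, below expectation. How many pairs would lie within 10 kb by position alone was not computed. The remaining 4 thymus maxima, at 52019000, 52319000, 52359000 and 52068000, had none. The highest O/E of either library was at the first of these pairs, 624 to 626 kb away, with 5.13 at 52598000 in thymus and 2.05 at 52600000 in brain. Relative signals at 52598000 averaged 2.74 in thymus (0.202 to 9.11) and 1.34 in brain (0.503 to 2.85). At 52148000 they were 1.92 and 1.02, at 52113000 1.79 and 1.18, and at 52068000 2.52 and 1.43, all with log2 ratios under 1.

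Other thymus viewpoints bore differently on the 8 thymus maxima. From the -470 kb viewpoint in thymus all 8 were above expectation, with O/E from 1.21 to 1.96. From -6 kb all 8 were, and from +1.5 kb 6 of 8. The exceptions from +1.5 kb were 52148000 (O/E 0.439) and 52068000 (0.639). Brain O/E at the same sites ran from 0.905 to 2.00, with 4 of 8 above 1. These counts describe sites picked in the thymus promoter library, and comparisons with brain at them share that library. The share of all positions above expectation was not counted, so the counts have no background beside them. The decay was fitted over both sides, so the side of a site enters its O/E. The higher-coordinate side held 78.5% of the signal from -6 kb, 61.8% from +1.5 kb and 35.8% from -470 kb. Most of the 8 sites lie on the lower-coordinate side of the -470 kb viewpoint.

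The largest differences towards brain lay mostly on the gene-body side. Of the 8 named by size, 7 were there, although 207 of all 452 brain-high positions and 15 of the 21 long brain runs were on the other side. At 51912000, 62 kb from the viewpoint, the relative signal averaged 2.64 in brain (1.10 to 4.57) and 0.235 in thymus (0.141 to 3.29), 11.2-fold higher in brain. At 51936000 it was 4.67 in brain and 1.14 in thymus, and at 51886000 1.80 and 0.253. Farther out, 51779000 had 1.00 in brain and 0.152 in thymus, and 51746000 had 1.01 and 0.156. With the decay over both sides, O/E at these 5 sites was 1.04 to 1.26 in brain and 0.125 to 0.305 in thymus. With a decay fitted to each side alone it was 0.988 to 1.16 in brain and 0.919 to 0.994 in thymus. The low thymus O/E thus describes the level of the whole side and not these sites. ES cells had 3.03 at 51912000 and 7.58 at 51936000, and the +1.5 kb thymus library 1.63 and 3.20.

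The far end was low in both tissues. The last position above 2 times the floor was 52674000 in brain, 700 kb from the viewpoint, and 52606000 in thymus, 632 kb away. The floor was 0.184 of the mean in brain and 0.230 in thymus, so the cut differed. With their own floors, the other thymus viewpoints had it at 52612000 (+1.5 kb), 52947000 (-6 kb) and 52754000 (-470 kb), and ES cells at 52604000. A shorter reach was thus not shared by all thymus libraries. Brain kept 0.839 and 0.631 in the 50 kb bins from 52.55 and 52.6 Mb, then 0.287 from 52.65 Mb and 0.184 from 52.7 Mb. Thymus had 0.458, 0.532, 0.160 and 0.179 in the same bins. The 100 kb before 52.65 Mb exceeded the 100 kb after 52.7 Mb by 4.07-fold in brain, 2.97-fold in thymus, 5.98-fold from +1.5 kb, 4.06-fold from -6 kb and 10.5-fold from the -470 kb site. The ratio in ES cells was 1.19, where both stretches were near the floor. Brain was past 2-fold here at 52617000 to 52634000 (18 positions), 52651000 to 52659000 (9 positions), 52666000 and 52674000. The named position 52655000 had 0.581 in brain and 0.0791 in thymus.

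Between 52224000 and 52648000 the brain profile was even and the thymus profile was peaked. Over 425 positions the coefficient of variation was 1.29 in thymus and 0.497 in brain. The top 10% of positions held 41.8% of the signal there in thymus and 19.8% in brain. Means were close, 0.685 and 0.604, but medians were 0.230 and 0.591, since 62.6% of thymus positions and 10.8% of brain positions were at the floor. The -6 kb thymus library, with 7.06% at its floor, had a coefficient of variation of 0.538, and the +1.5 kb library, with 53.9% at its floor, had 1.42. The ES library, with 80.7% at its floor, had 1.20. The part of fill in the difference between tissues was not tested.

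Across the 48 smoothing windows of 2 to 49 kb the side difference was stable. The higher-coordinate share ran from 86.2% to 88.8% in thymus and from 49.2% to 52.1% in brain. The largest brain excess lay on the gene-body side in all 48 windows, 36 to 61 kb from the viewpoint. The largest thymus excess lay 39 to 62 kb away in 31 windows, 337 to 340 kb away in 16, and elsewhere in 1. Positions past 2-fold numbered 78 to 140 for thymus and 377 to 462 for brain. Spearman's rho between the profiles, over positions that share fragments and the decay with distance, ran from 0.583 to 0.659 with 0.619 at 5 kb. After division by the decay it was 0.154 at 5 kb.

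**Figure D4:**
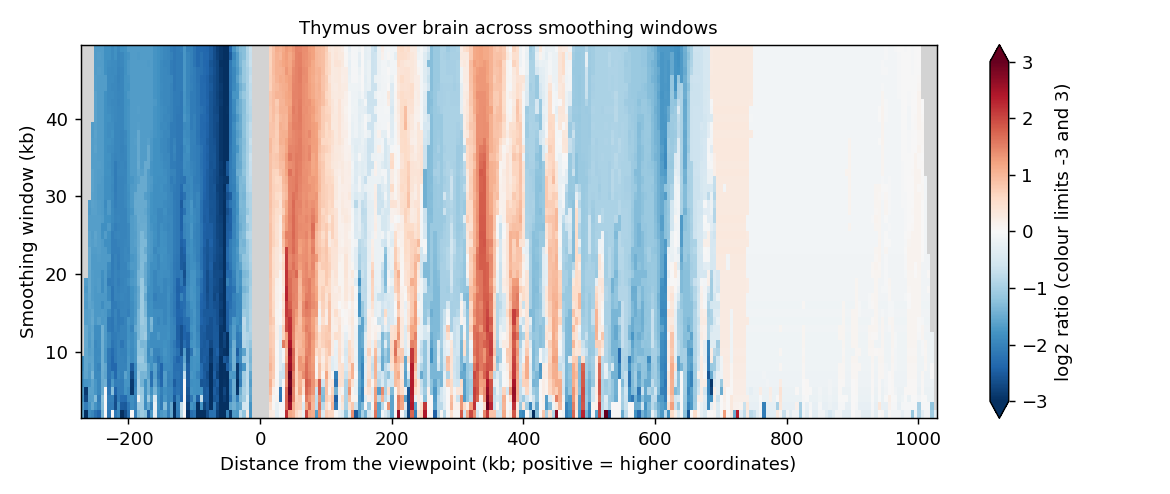
log2 ratio of relative signal, thymus (red) over brain (blue), by distance from the viewpoint (kb) and smoothing window (2 to 49 kb), drawn every 5 kb; grey marks positions left out or unfilled. Thymus excess around 45 and 345 kb and brain excess on the gene-body side run through all windows, while the narrow peaks at the -470 kb viewpoint and at 624 kb fade as the window widens.

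Named sites differed in how they held across windows. Of the 8 thymus maxima, 5 were higher in thymus at all 48 windows, and 2 were past 2-fold at all 48: 52019000, with log2 ratios of 1.22 to 2.40, and 52319000, with 1.16 to 2.03. At 52206000 and 52359000 the ratio stayed above 0 at every window but was past 2-fold at 15 and 20. The -470 kb site was higher in thymus at 43 windows and past 2-fold at 12, from 1.32 down to -0.17. At 52598000 the direction turned: thymus was higher at 18 windows and brain at the other 30, with log2 ratios from 1.10 down to -1.72. Of the 8 brain-high positions, 7 were past 2-fold at every window in which they were filled. The exception was 52655000, past 2-fold at 8. The 7 lie on the gene-body side, where 93.5% of all positions were past 2-fold towards brain at 5 kb. Apart from the -470 kb landmark, the sites were picked at 5 kb by their O/E or their ratio. The windows smooth the same fragment ends, so holding across windows follows partly from the choice. No share over all positions stands beside these counts.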

How the data were processed

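The authors deposited 1 signal table per library, on mm9 per the submitters' processing notes, with 3 columns (middle, higher and lower value) for each of 48 running windows. The file names call the values normalized medians; for the normalization, aligner, filters and depth, details are not given in the sources used. The signal was used as deposited, at the 5 kb window. Each library was divided by its mean beyond 10 kb, and 10% of that mean was added before log2 ratios. The monotone decay was an isotonic regression (scikit-learn 1.9.0, Python 3.11.15). The floor is the higher of the values that each hold at least 5% of positions, a rule chosen after seeing the values, like the mirrored pairs, the evenness stretch and the far-end bins. Named positions were the -470 kb viewpoint, up to 8 maxima of O/E above 1 per library with signal in its top 25%, for each direction the 8 largest ratios among positions in the top 50%, all at least 20 kb apart, and up to 6 of the longest runs. Members and rules were chosen with earlier results of these data known. Positions are not replicates. The comparison was tested on simulated data, with both libraries made from the brain profile and changes planted in 1 of them. Those data held no difference in fill or scaling like that of the real pair, so the test does not cover these. Alternatives were other windows, scalings, pseudocounts, folds, decays and target widths.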

Additional observations from a re-analysis of the deposited data

How the results depend on the processing

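With 1 library per tissue, no replicate could be left out and no paired analysis was possible because each group has 1 library. Differences were read against the template pair: 0.82 for log2 ratios and 13.4 points for side shares. Side shares stayed within it under every alternative run, at 83.7% to 90.4% in thymus and 48.3% to 62.1% in brain. For the other results the tolerances were fixed numbers: 1.5-fold for counts, 0.1 for the rank correlation and 0.2 for the SD. Of 451 alternatives over all results, 336 stayed within their tolerance. For the SD and the rank correlation each other window of the 48 was an alternative, and neighbouring windows overlap. A log2 ratio could also change sign within its tolerance, so the tally is no measure of stability. Scaling moved most: all 28 named positions moved by more than 0.82 under median scaling, as did 25 of 28 without scaling. Counting every change of sign, 12 of the 28 turned without scaling, 9 at 49 kb, 5 at 20 kb, 3 with a decay per side and 1 each at 2 and 10 kb.
Thymus positions past 2-fold (10%) became 711 with median scaling, 14 unscaled, 197 at fold 1.5, 66 at fold 3 and 85 with a decay per side. Brain positions (452) became 59, 1029, 272 at fold 3, 200 with a decay per side, and 53 where only the 400 positions above the floor in both libraries were counted, an alternative chosen after seeing the data. Positions with the thymus range above (3) became 0 at 10, 20 and 49 kb, 62 with median scaling and 0 unscaled. With the brain range above (27) they became 55 at 2 kb, 4 at 20 kb, 0 at 49 kb, 1 with median scaling and 390 unscaled. Bands higher in thymus (6 of 12) became 3 at 20 kb. The rank correlation of the profiles (0.619) became 0.154 after division by the decay.
The -470 kb ratio (1.32) became 2.79 with median scaling, 0.010 unscaled and -0.17 at 49 kb, a reversal. Turns from a ratio past 2-fold included, with no scaling, 52.203 (-0.27), 52.421 (-0.0091) and 52.487 Mb (-0.088), at 49 kb at 52.421 (-0.15) and 52.487 (-0.94), and at 20 kb at 52.487 (-0.18). With a decay per side they turned at 51.709 (0.039), 51.851 (0.51) and 51.934 Mb (0.059); that decay takes its level from the side itself. The other causes were not tested. Depth is unknown, and floor values have no measured order.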
